A study of Homo sapiens with 3 samples.

Results

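The C/EBP (CCAAT/enhancer-binding protein) family was measured through 6 genes, CEBPA, CEBPB, CEBPD, CEBPE, CEBPG and CEBPZ. Their probes were found by matching the RefSeq transcript accession of each array probe, without its version, to a gene symbol, and every probe of the 6 genes was taken. Each gene had a single probe, so the family stood for 6 of the 34041 probes and 6 of the 19699 genes that could be named. The transcripts targeted were NM_004364 for CEBPA, NM_005194 for CEBPB, NM_005195 for CEBPD, NM_001805 for CEBPE, NM_001806 for CEBPG and NM_005760 for CEBPZ. The members were picked with their signals on these 3 arrays known, so all of their values are descriptions.

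PANC-1, an established human pancreatic carcinoma cell line, was left untreated, exposed to cantharidin at 20 µM for 24 h, or exposed to okadaic acid for 24 h. Both compounds inhibit protein phosphatase 2A (PP2A), and okadaic acid served as a reference inhibitor for cantharidin. The sample labels give okadaic acid at 20 µM as well, although the note on the treatment can be read as stating a dose for cantharidin only. For each condition total RNA, marked with Cy3, was put on 1 human oligonucleotide array, giving 3 arrays with 1 per group. No difference below therefore has a replicate check, no p-value is given, and a lower signal from fewer cells of a kind cannot be told apart from less RNA per cell.

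C/EBP proteins are transcription factors with a basic leucine zipper (bZIP), through which they form dimers with each other and with relatives such as ATF4 or DDIT3 and bind DNA. CEBPA drives differentiation of myeloid cells, fat cells and hepatocytes and restrains proliferation, CEBPB and CEBPD are induced by inflammatory cytokines and by stress, and CEBPE acts in late granulocyte maturation. CEBPG lacks a strong activation domain and acts mainly as a dimer partner. CEBPZ shares the name only: it has no bZIP and is related to nucleolar proteins of ribosome assembly.

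Between 23071 probes (okadaic acid) and 25103 probes (cantharidin) were well above background per array. The dimmest of these set a floor for each array, at 35.0 units in control, 21.9 with cantharidin and 58.0 with okadaic acid. Signals were scaled by the 75th percentile of intensity per array (784 units in control, 713 with cantharidin and 936 with okadaic acid), and differences are log2 values after this scaling. The median difference over probes was -0.17 for cantharidin against control and -0.01 for okadaic acid against control, and the 2 comparisons share their control array. The 7 markers of epithelial and carcinoma cells were well above background in control cells, from 167 units for CDH1 to 311685 for VIM, and the keratin KRT18 read 70664 units in control, 127869 with cantharidin and 193320 with okadaic acid. CDH1, the E-cadherin of cell junctions, was not well above background on either treated array. Of these 7 markers, 1 was at least 1.5-fold higher and 3 lower under cantharidin (median -0.56). Under okadaic acid 2 were higher and 4 lower (median -0.65). Over all genes compared, 27.5% were higher and 34.1% lower under cantharidin, and 28.1% and 28.8% under okadaic acid. The 6 blood cell markers were not at 0: all were well above background on the 3 arrays, and SPI1, a partner of CEBPA in myeloid cells, read 8333, 4443 and 4462 units.

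CEBPA stood out by the size of its change. Its probe read 65.6 ± 9.90 units in control, 543 ± 54.6 with cantharidin and 9692 ± 969 with okadaic acid, where the error is the scanner's own estimate for a single spot and does not cover variation between cultures. The control signal was dim, at 1.88 times the floor, and the 3 readings were far apart relative to these errors, with okadaic acid highest. After scaling, CEBPA was 9.11-fold higher under cantharidin than in control (log2 difference 3.19, scanner error 0.26) and 124-fold higher under okadaic acid (6.95, scanner error 0.26). Only 4 of the 22125 probes measured on both the control and the okadaic acid array had a larger positive difference, against 410 of 23102 probes for cantharidin. Okadaic acid exceeded cantharidin by 13.6-fold (3.76, scanner error 0.20). The size depended on the setting: across 7 other settings the fold ranged from 4.68 to 13.3 for cantharidin and from 55.8 to 179 for okadaic acid, lowest with the normexp background correction in both. Replicate spots of like brightness on the control array had a median SD of 0.19 on the log2 scale over 91 probes.

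**Figure D1:**
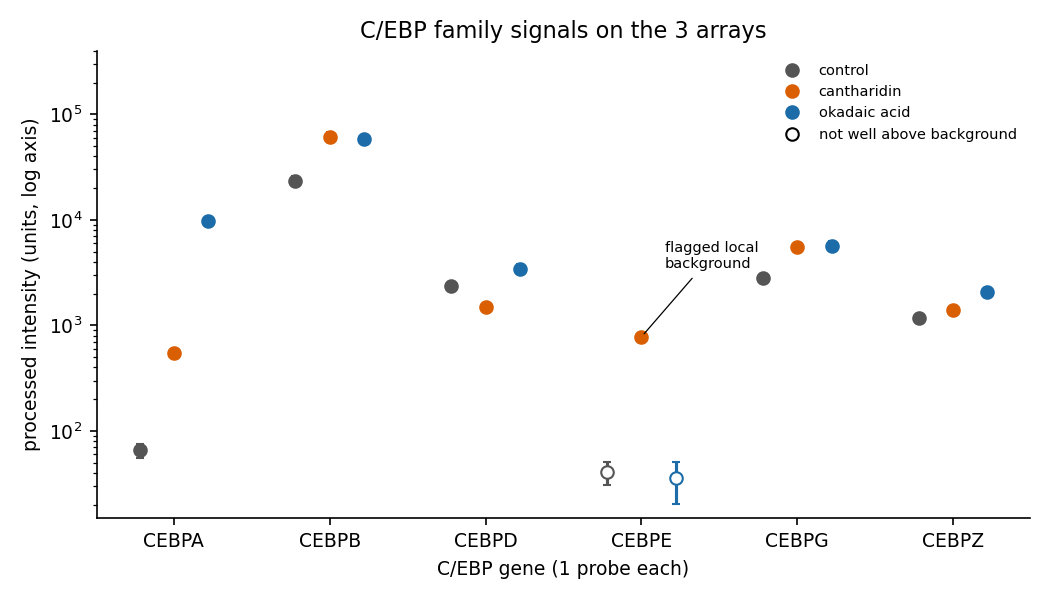
Processed intensity of the 6 C/EBP probes (log axis, units) in control, cantharidin-treated and okadaic acid-treated cells, before scaling between arrays. Bars are the scanner's error and lie within most symbols, open circles were not well above background, and CEBPA spans 65.6 to 9692 units while CEBPZ spans 1172 to 2052.

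CEBPB, the inflammatory and stress-responsive member, was bright in untreated cells and higher under both compounds. The array carries its probe in 10 spots, which read 22518 to 24855 units on the control array, 57726 to 64031 under cantharidin (9 spots, since 1 carried an outlier mark) and 56053 to 60779 under okadaic acid. Every treated spot lay above every control spot, while the ranges under the 2 compounds overlapped before scaling. CEBPB was 2.87-fold higher under cantharidin (1.52, SE over spots 0.02, scanner error 0.20). Under okadaic acid it was 2.07-fold higher (1.05, SE over spots 0.02, scanner error 0.20). Spots of an array repeat the same sample, so their SE and spot pairs do not cover variation between cultures. All 9 spot pairs with control under cantharidin and all 10 under okadaic acid were past 1.5-fold. After scaling, okadaic acid was 1.39-fold lower than cantharidin, with all 9 spot pairs lower (-0.54 to -0.36). This difference passed 1.5-fold only with each array scaled to its median (1.54-fold).

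CEBPG, the dimer partner that lies on the same chromosome as CEBPA, had a similar order. It read 2786 ± 279 units in control, 5503 ± 550 under cantharidin and 5677 ± 568 under okadaic acid. Before scaling, the 2 treated readings lay within their scanner errors of each other and above control. After scaling CEBPG was 2.17-fold higher under cantharidin (1.12, scanner error 0.20) and 1.71-fold higher under okadaic acid (0.77, scanner error 0.20), the smallest of the family's differences past 1.5-fold for either agent. Between the agents the difference after scaling was -0.35 (scanner error 0.20). It ran from -0.50 to 0.05 over the 7 other settings, so its sign was not settled.

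CEBPA, CEBPB and CEBPG were the members past 1.5-fold with both agents on undisturbed spots. The 250 bases upstream of their start sites are printed from RefSeq (GRCh38.p14), 5′ to 3′ on the strand of the gene, because these genes were higher together. Capitals mark matches, on either strand, to the letters GGGCGG (GC box), TATAAA (an element of core promoters), CCAAT (a box bound by NF-Y), TGACG (core of the cyclic AMP response element), TGANTCA (AP-1), TTGCNNAA (C/EBP), TGATGNAA (the composite of a C/EBP and an ATF site) or the κB motif. None of the matches overlapped another.
CEBPA, chr19:33302535-33302784, minus strand: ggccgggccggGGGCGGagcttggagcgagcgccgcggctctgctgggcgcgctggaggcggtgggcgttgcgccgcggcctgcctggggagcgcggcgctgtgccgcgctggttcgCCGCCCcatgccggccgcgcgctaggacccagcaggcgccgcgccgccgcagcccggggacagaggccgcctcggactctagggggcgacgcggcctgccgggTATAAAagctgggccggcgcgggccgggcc
CEBPB, chr20:50190333-50190582, plus strand: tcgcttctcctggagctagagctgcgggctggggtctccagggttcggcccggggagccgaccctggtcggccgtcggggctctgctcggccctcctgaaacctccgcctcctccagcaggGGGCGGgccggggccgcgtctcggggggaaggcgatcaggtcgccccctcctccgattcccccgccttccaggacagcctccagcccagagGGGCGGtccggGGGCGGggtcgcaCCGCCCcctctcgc
CEBPG, chr19:33373459-33373708, plus strand: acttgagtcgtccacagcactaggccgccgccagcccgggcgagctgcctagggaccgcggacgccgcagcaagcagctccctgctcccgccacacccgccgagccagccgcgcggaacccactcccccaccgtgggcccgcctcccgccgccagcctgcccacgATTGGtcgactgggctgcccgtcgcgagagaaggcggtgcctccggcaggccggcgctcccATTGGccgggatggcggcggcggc
These windows were rich in G and C, at 81.2% for CEBPA, 75.6% for CEBPB and 76.0% for CEBPG, against a median of 58.0% over 35116 upstream windows of 27305 genes. The CEBPA window held TATAAA at 30 to 25 bases before the start, a string found in 10.7% of all windows, and 2 GC boxes. TATAAA also stood 29 to 24 bases before a second annotated start of CEBPB, in a window with 5 GC boxes and 1 CCAAT box. The CEBPB window printed here held 4 GC boxes, a string in 42.6% of windows, and CEBPG held 2 CCAAT boxes in reverse, a string in 32.0% of windows. CEBPG has a second annotated start as well. For both genes a stretch of 30 bases from the window upstream of that start is shown, which does not reach the start. These stretches hold letters that ATF-type factors can bind.
CEBPB, chr20:50190761-50190790, plus strand: gaggggccggcgTGACGcagcggttgctac
CEBPG, chr19:33374060-33374089, plus strand: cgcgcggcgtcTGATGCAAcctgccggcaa
The capitals mark TGACG, which starts 57 bases before the second CEBPB start and occurs in 21.2% of all windows, and TGATGCAA, which starts 42 bases before the second CEBPG start and fits a motif present in 3.14% of windows. TGACG was not particular to members past 1.5-fold with both agents, since CEBPZ held it at 174 to 170 bases before its start. Among the member windows searched, TGATGNAA was matched only in that CEBPG window. CEBPE held other letters, an AP-1 match at 100 to 94 bases and a κB match at 186 to 177 bases. TTGCNNAA was in none of the 7 windows searched, which covered 5 members, against 9.05% of all windows. No window of CEBPD was searched, so nothing is said here of its letters. A match of letters is a description, not a binding site.

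CEBPD, the other cytokine-induced member, had another order of levels than CEBPB. It read 2351 ± 235 units in control, 1481 ± 148 under cantharidin and 3444 ± 345 under okadaic acid, so cantharidin was lowest and okadaic acid highest. After scaling it was 1.44-fold lower under cantharidin (-0.53, scanner error 0.20) and 1.23-fold higher under okadaic acid (0.30, scanner error 0.20), neither past 1.5-fold. Only without scaling did the lower value under cantharidin pass (1.59-fold lower). Directly compared, okadaic acid was 1.77-fold higher than cantharidin (0.82), and this was past 1.5-fold in each of the 7 other settings.

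CEBPZ, the nucleolar relative, stayed below 1.5-fold with both agents. Its 10 spots read 1088 to 1266 units on the control array, 1270 to 1496 under cantharidin and 1808 to 2260 under okadaic acid. The spots of the 3 arrays did not overlap before scaling, but the differences were small. CEBPZ was 1.30-fold higher under cantharidin (0.38, SE over spots 0.03, scanner error 0.20). Under okadaic acid it was 1.47-fold higher (0.55, SE over spots 0.04, scanner error 0.20), just short of 1.5-fold. Of the 10 spot pairs under okadaic acid, 3 were past 1.5-fold, and the mean was past it in 4 of the 7 other settings. Between the agents the difference after scaling was 0.17 (scanner error 0.20), with the 10 spot pairs from -0.002 to 0.28.

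**Figure D2:**
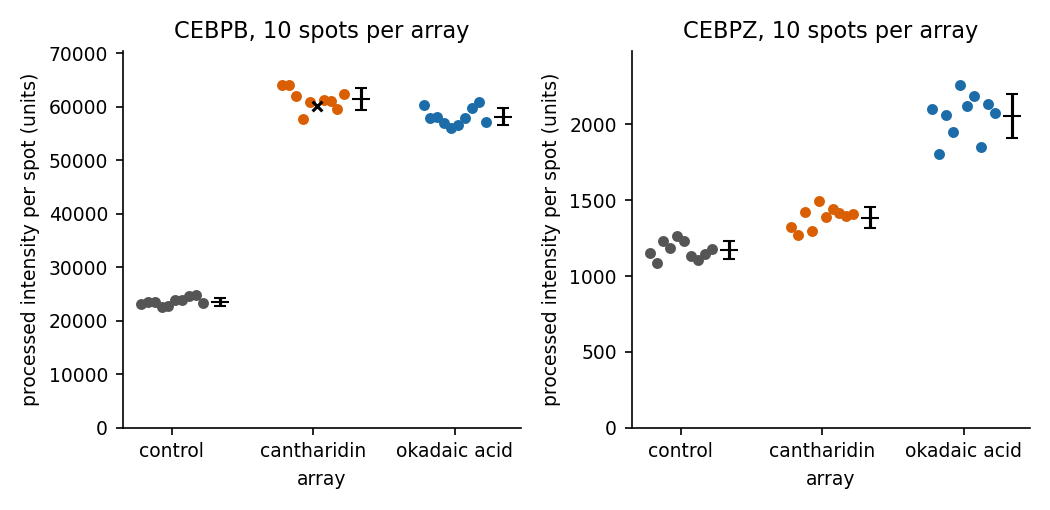
Processed intensity (units) of each replicate spot of CEBPB and CEBPZ on the 3 arrays, before scaling between arrays. The mean and SD over spots are in black, and a cross marks the spot left out. Spots of CEBPB under both agents lie at 56053 units or more, above the highest control spot at 24855, and those of CEBPZ step up from 1088 to 2260.

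CEBPE, the granulocyte factor, gave a signal on the cantharidin array alone, and its spot there lay in a bright patch. It read 40.5 ± 9.78 units in control and 35.5 ± 15.1 under okadaic acid, both not well above background, and 777 ± 77.9 under cantharidin. Taken as it stands in the main setting, CEBPE was at least 21.1-fold higher under cantharidin than in control. Against cantharidin, the okadaic acid reading was lower by a factor of at least 17.6 in that setting. Across the 7 other settings the first fold ranged from 6.88 to 35.8 and the second from 7.22 to 52.2, so neither bound holds in all of them. No fold is given for okadaic acid against control, since both readings were dim. The local background beside the spot was 115 units under cantharidin and carried the scanner's outlier mark for background, against 30 in control and 32 under okadaic acid. Of the 39 spots within 3 rows and columns of it, 37 carried that mark on the cantharidin array and 0 on each of the other arrays. Their median intensity was 811 units under cantharidin, 125 in control and 87.6 under okadaic acid. The 10 of these spots that were not well above background in control were all well above background under cantharidin, at 351 to 1575 units, and each holds a different probe from CEBPE. The part of this patch in the CEBPE value was not tested, and family counts are given with and without CEBPE.

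**Figure D3:**
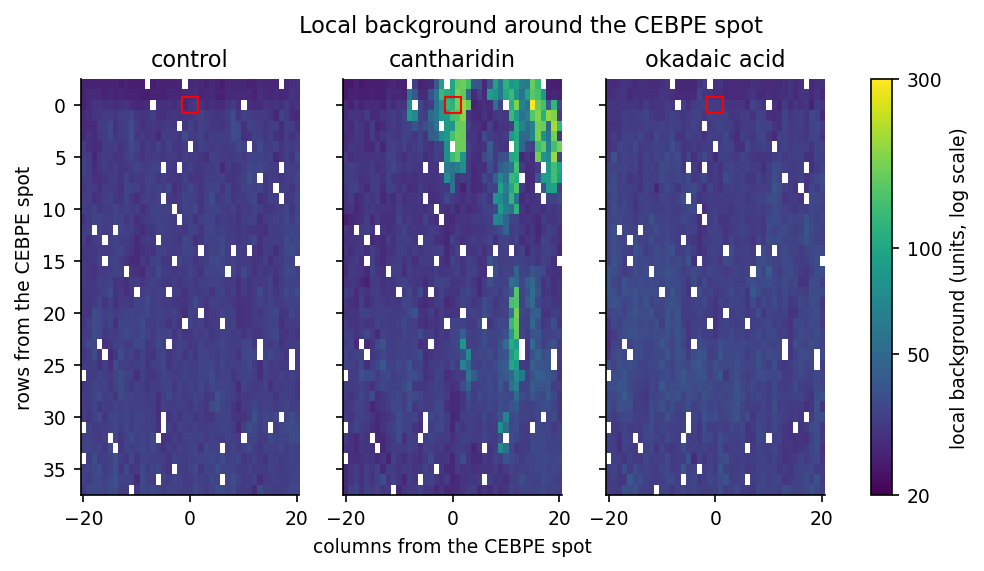
Local background (units, log colour scale) of spots around the CEBPE spot, which the red square marks, by rows and columns from it on the 3 arrays; white cells have no transcript spot. On the cantharidin array the square lies in a streak of raised background (115 units at the spot), while the other arrays read 30 and 32 units there.

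Counted as a family, 4 of 6 members were at least 1.5-fold higher under cantharidin (CEBPA, CEBPB, CEBPE and CEBPG) and 0 lower. Without CEBPE and with spots beside a marked background left out, this was 3 of 5. Over all 26769 probes compared, 26.4% were higher and 33.0% lower by that measure (25.9% and 33.4% of 25783 without marked backgrounds). Under okadaic acid 3 of the 5 members compared were higher (CEBPA, CEBPB and CEBPG) and 0 lower, against 26.5% and 27.7% of 25714 probes. For okadaic acid against cantharidin, 2 members were higher (CEBPA and CEBPD) and 1 was lower (CEBPE), against 28.0% and 22.5% of 25771 probes. Without marked backgrounds the members gave 2 and 0 of 5, against 28.3% and 21.9% of 25086 probes. The members were chosen with these differences known, so nothing is read from the counts beyond the listing.

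Among 13694 genes well above background on all 3 arrays and away from marked backgrounds, the genes with the smallest distance to each member in the plane of both log2 differences were listed. For CEBPA these were CXCR4, a chemokine receptor (2.78 under cantharidin and 5.88 under okadaic acid), ID2, an inhibitor of helix-loop-helix factors (2.57 and 5.74), and CCL20, a chemokine (3.80 and 5.70). Even the nearest, CXCR4, was 1.15 log2 units away, and 0 genes lay within 0.5 of CEBPA. The other members had crowded surroundings, with 507 genes within 0.5 of CEBPB, 704 of CEBPG, 1463 of CEBPZ and 1915 of CEBPD. The nearest were NCR1, CUX1 and FAM193A for CEBPB, CLTRN, ABCA10 and NFAT5 for CEBPG, PPP1R16B, PDXDC1 and SATB1 for CEBPZ, and NME7, PCP4 and MARCKS for CEBPD. With 2 differences per gene that share a control array, such likeness is a position only.

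**Figure D4:**
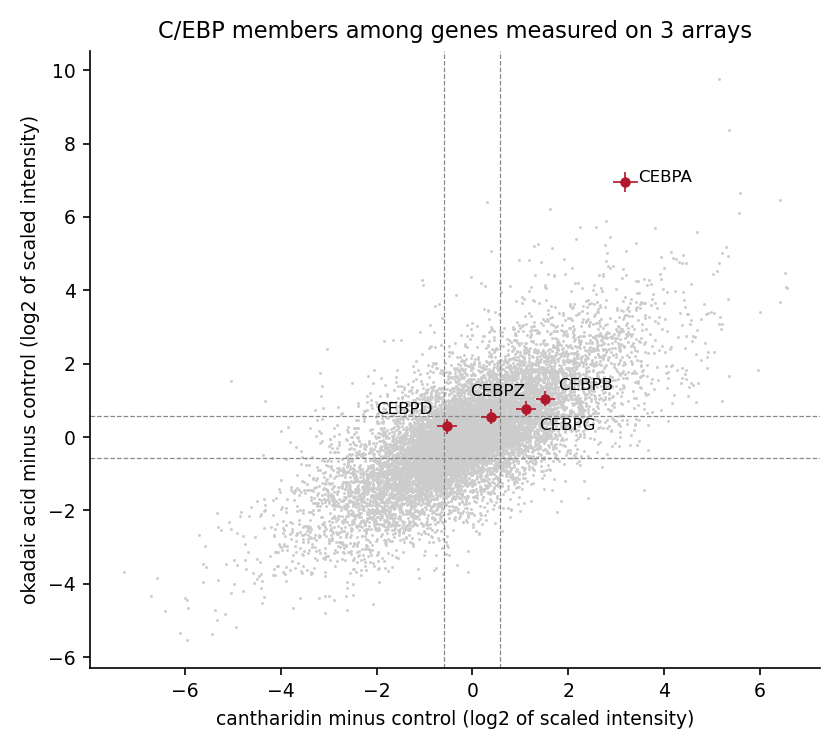
Log2 difference against control under okadaic acid (vertical) and cantharidin (horizontal) for genes well above background on all 3 arrays (grey), with 5 C/EBP members in red, bars for the scanner's error and dashed lines at 1.5-fold. The axes share the control array, and CEBPA lies at 3.19 and 6.95, apart from the other members.

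The bZIP partners of the family were next in order. Of 15 genes, 14 could be compared under cantharidin, and 8 were at least 1.5-fold higher and 2 lower (7 and 2 of 13 without marked backgrounds), with a median difference of 1.09. Over all 16644 genes compared, 27.5% were higher and 34.1% lower, with a median of -0.16 (26.9% and 34.4% of 16044 without marked backgrounds). Under okadaic acid 5 of 12 were higher and 3 lower, with a median of 0.50, against 28.1% and 28.8% of 16166 genes and a median of 0.01. ATF3, a stress-induced relative, read 1688 units in control, 130202 under cantharidin and 25724 under okadaic acid (6.41 and 3.67), although its 4 probes ran from -0.15 to 6.41 with cantharidin and from -0.47 to 3.67 with okadaic acid. BATF2, an interferon-responsive relative, read 49.8, 1005 and 602 units (4.47 and 3.34). FOS, a subunit of AP-1, was highest under okadaic acid, with 3434, 8879 and 72510 units (1.51 and 4.14). ATF3 and BATF2 thus peaked under cantharidin and FOS under okadaic acid.

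DDIT3 (CHOP), which dimerises with C/EBP proteins and keeps them from their usual sites, differed in direction between the agents. It read 9122 units in control, 28537 under cantharidin and 7145 under okadaic acid, differences of 1.78 and -0.61. The lower value under okadaic acid was only just past 1.5-fold (1.52-fold lower). ATF2, a CRE-binding relative, had differences of 1.82 and 0.96. DBP, a circadian bZIP factor, was the lowest of the list, with 4808, 88.3 and 517 units (-5.63 and -3.47). The list thus held members far above and far below control under each agent.

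Genes that regulate C/EBP proteins had differences of both signs. Of 13 genes, 7 were higher and 2 lower under cantharidin (median 1.48), beside 27.5% and 34.1% of all genes. Under okadaic acid 7 were higher and 3 lower (median 1.05), beside 28.1% and 28.8% of all genes. TRIB1 and TRIB3 belong to the Tribbles pseudokinases. TRIB1, which brings CEBPA to the ubiquitin ligase COP1 for degradation, read 705, 2234 and 8821 units (1.80 and 3.39), and TRIB3, a target of ATF4 and DDIT3, read 3745, 84584 and 29312 units (4.64 and 2.71). TRIB1 was highest under okadaic acid, as CEBPA was, and TRIB3 under cantharidin, as DDIT3 was. FBXW7, a ligase subunit that marks phosphorylated C/EBP proteins, differed by 1.48 and 3.21, and the coactivator EP300 by 2.68 and 2.52. CREBBP, the other coactivator, differed by 2.40 and 0.55. ID1 was lower, with 64250, 7831 and 27256 units (-2.90 and -1.49), whereas its relative ID2 read 611, 3303 and 38888 units (2.57 and 5.74), so the ID genes went in opposite directions under each agent.

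Upstream cytokines, receptors and kinases were mixed. Of 16 genes, 4 were higher and 3 lower under cantharidin (median 0.20), near or below the 27.5% and 34.1% of all genes. Under okadaic acid 7 of 15 were higher and 2 lower (median 0.53), beside 28.1% and 28.8% of all genes. TNF, which induces CEBPB and CEBPD, read 169, 377 and 4295 units (1.30 and 4.41). SOCS3, the feedback inhibitor of STAT3 signalling, read 4090, 2494 and 19932 units (-0.58 and 2.03), lowest under cantharidin and highest under okadaic acid as CEBPD was. OSM, a cytokine of the interleukin-6 group, differed by 1.93 and 1.61 on its brighter probe, whereas its other probe gave -0.87 and -0.44. Of the kinases, GSK3B, which phosphorylates CEBPA and CEBPB, differed by 1.69 and 0.97, and MAPK3 by -1.49 and -1.69.

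Known target genes did not follow 1 pattern. Of 20 acute-phase and inflammatory targets, 14 could be compared under cantharidin, with 5 higher and 3 lower (median 0.26; 4 and 3 of 13 without marked backgrounds), and 16 under okadaic acid, with 9 higher and 2 lower (median 0.79). Over all genes compared, 27.5% were higher and 34.1% lower under cantharidin, and 28.1% and 28.8% under okadaic acid. CXCL8, a neutrophil chemokine, differed by 5.57 and 6.65. LCN2, an iron-binding acute-phase protein, read 116, 3191 and 692 units (4.92 and 2.32), and PTGS2, the inducible cyclooxygenase, read 53.0, 774 and 789 units (4.01 and 3.64). All of these were higher under both agents. PTX3, a pentraxin of innate immunity, read 5162, 5404 and 37477 units (0.20 and 2.60), and CCL2, a monocyte chemokine, read 2967, 192 and 3195 units (-3.81 and -0.15). PTX3 thus differed from control under okadaic acid and CCL2 under cantharidin. SAA2, a classical C/EBP target of the acute phase, read lower under both on its brighter probe (-2.42 and -1.68), but its other probe gave -0.36 and 0.51.

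Targets tied to cell differentiation were mixed for myeloid genes and mostly dim for fat and liver genes. Of 10 myeloid targets, 9 could be compared under cantharidin, with 2 higher and 2 lower (median 0.16). Under okadaic acid 7 could be compared, with 2 higher and 3 lower (median -0.08). For these lists too, the shares of all genes were 27.5% higher and 34.1% lower under cantharidin, and 28.1% and 28.8% under okadaic acid. PRTN3, a granule protease, read 419, 57.3 and 113 units (-2.73 and -2.15), LTF, a granule iron-binding protein, differed by -1.20 and -1.07, and CSF1R, the macrophage growth factor receptor, by 1.46 and 1.26. CAMP, another granule gene, went the other way and was well above background only under cantharidin (89.9 units, at least 2.83-fold higher). The granule genes thus had no common direction under cantharidin. For okadaic acid against control CAMP was not compared. Of 10 adipocyte and liver targets only 4 could be compared with control, with 0 higher and 3 lower under cantharidin (median -1.35) and 1 higher and 2 lower under okadaic acid (median -0.90, or -0.49 with dim signals at their bound). PPARG, which CEBPA and CEBPB induce in fat cells, read 1438, 561 and 1912 units on its brighter probe (-1.22 and 0.16). Its other probe gave -0.28 and 0.58. The non-coding neighbour CEBPA-DT, transcribed away from CEBPA, read 43.4, 25.9 and 49.4 units and was well above background only in control, so the high CEBPA reading under okadaic acid had no such counterpart on this probe.

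The nucleolar genes around CEBPZ had differences of both signs. Of 18 genes, 4 were higher and 7 lower under cantharidin (median -0.20; 4 and 6 of 17 without marked backgrounds), beside 27.5% and 34.1% of all genes. Under okadaic acid 5 were higher and 2 lower (median 0.00), beside 28.1% and 28.8%. Under cantharidin these counts lay near the shares of all genes. NOP58, a core protein of small nucleolar ribonucleoproteins, differed by 2.80 and 2.87, RRP12, a ribosome export factor, by 2.53 and 2.35, and NOC4L, a relative of the Noc proteins, by 1.81 and 1.95. These were higher under both agents, and by more than CEBPZ. RRS1, a ribosome assembly factor, read 1762 units in control, 393 under cantharidin and 2139 under okadaic acid (-2.02 and 0.02), lower under cantharidin alone. WDR12, of the complex that matures the large ribosomal subunit, was lower under both (-1.81 and -1.39).

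**Figure D5:**
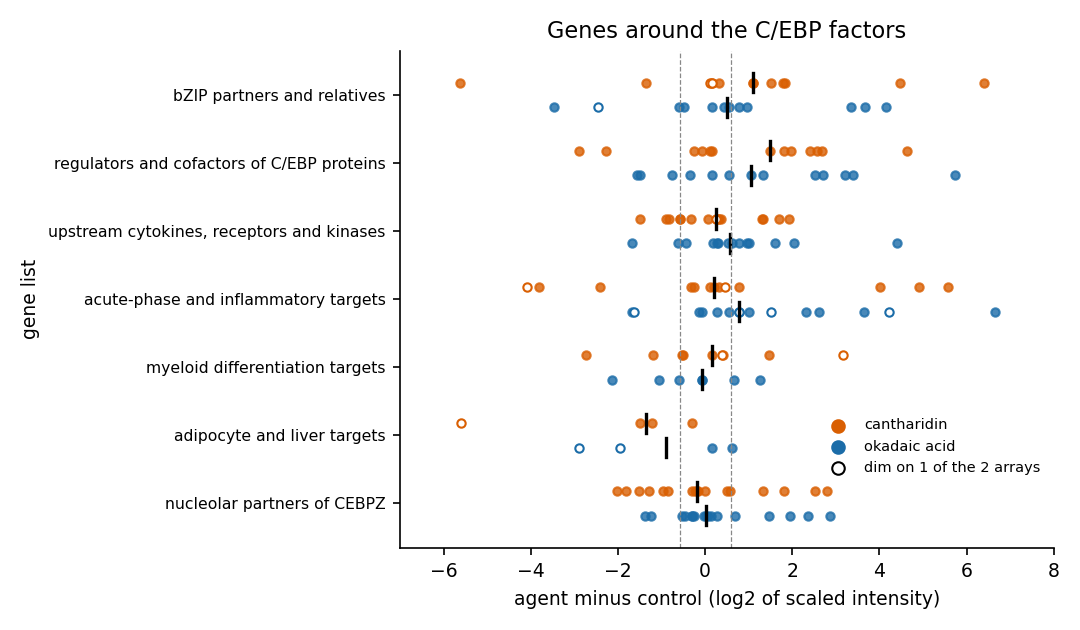
Log2 difference against control of each compared gene in 7 gene lists around the C/EBP factors, under cantharidin (orange) and okadaic acid (blue), leaving out spots beside a marked background; black bars are list medians, open circles were dim on 1 of the 2 arrays, and dashed lines stand at 1.5-fold. ATF3 under cantharidin (6.41) and CXCL8 under okadaic acid (6.65) lie farthest right, and DBP under cantharidin (-5.63) is the lowest gene measured on both arrays.

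In the direct comparison of the agents, the median under okadaic acid relative to cantharidin was lower for the bZIP partners (-0.68, with 2 of 14 higher and 8 lower) and higher for the acute-phase targets (0.74, with 8 of 15 higher and 2 lower). Over all 16200 genes compared, 29.5% were higher and 22.3% lower, with a median of 0.13. ATF3 (-2.73) and DDIT3 (-2.39) were lower under okadaic acid, and FOS (2.64) and DBP (2.16) higher. Among the targets CCL2 (3.66) and PTX3 (2.40) were higher and LCN2 (-2.60) lower. Of the regulators ID2 (3.16) was higher and TRIB3 (-1.92) lower, in a list with 6 of 13 genes higher and 3 lower (median 0.23). Of the upstream genes, TNF (3.12) and SOCS3 (2.61) were higher, in a list with 5 of 16 higher and 3 lower (median -0.08).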

How the data were processed

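The members and gene lists were chosen with earlier results of these data known. The authors deposited the Feature Extraction 11.0.1.1 output of 3 arrays (probe annotation on hg19), grouped here by sample title. The deposited intensity was, per the file headers, corrected for background and for position within an array, with no scaling between arrays. Flags (outlier spot, local background, saturation, well above background) came in other deposited columns. A deposited table of normalized log2 values, with a method not given in the sources used here, served as an alternative.

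Spots with outlier flags were left out, log2 intensity was averaged per probe, and the array's 75th percentile was subtracted. Comparisons took probes well above background on 1 or both arrays, with calls at 1.5-fold and no pseudocount. Where 1 array was dim, the fold is a bound against the higher of its own signal and that array's floor. Accessions were matched to RefSeq names of GRCh38.p14, which named 25705 probes, and a gene was its brightest probe. CEBPB-AS1 and CEBPZOS, without a matched probe, were not used here. Named genes were the 6 members, at most 5 genes per list and comparison with the largest difference among genes measured on both arrays, and the 3 genes nearest each member. CAMP, CDH1 and CEBPA-DT were named outside this rule after their values were seen. The labels do not say that arrays came from separate cultures, and the number of arrays limits the precision.

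Alternatives were normexp with an offset of 50 (on median spot intensity, since the mean was not used here), median, detected-probe or no scaling, quantile normalization, 2 other filters, the deposited table, a 2-fold threshold and the median over a gene's probes. Dim signals at the floor and leaving out marked local backgrounds were chosen after seeing the data. The counting was tested on simulated data. Software was Python 3.11.15 (matplotlib 3.10.9, numpy 2.4.6, pandas 2.3.3) and R 4.3.3 (limma 3.58.1).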

Additional observations from a re-analysis of the deposited data

Results flagged for a closer look

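CEBPD had a log2 difference of -0.53 under cantharidin and 0.30 under okadaic acid, on opposite sides of control. DDIT3 likewise had 1.78 under cantharidin and -0.61 under okadaic acid. With 1 array per group, these differences between the agents were not tested. The local background beside the CEBPE spot was 115 units on the cantharidin array, above the 30 units on the control array. The main comparisons did not take up this measurement. The normexp alternative used it, and the counts without marked backgrounds used the scanner's mark.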

How the results depend on the processing

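Across the alternatives, 68 recomputed counts of members or list genes past 1.5-fold stayed within 1.5 times the reported count and 1 did not: with the 2-fold threshold, 27 in place of 44 list genes differed between okadaic acid and cantharidin, as a stricter threshold must give fewer. Of the counts per list, 259 stayed within 1.5 times and 29 did not. Of the log2 differences of single members, 101 moved by less than the scanner's error and 18 by more, and 0 of those past 1.5-fold changed sign, while that of CEBPG between the agents, not past it, did. The count of members past 1.5-fold ranged from 3 to 5 for cantharidin, 2 to 4 for okadaic acid and 2 to 4 between the agents. The median over all probes shifted with the scaling and the background correction, from -0.30 to -0.09 for cantharidin and from -0.13 to 0.25 for okadaic acid, so differences as small as those of CEBPZ and CEBPD have to be read against it. Signal over background limited CEBPA in control and CEBPE on 2 arrays. No paired analysis was possible because each group had 1 array and the labels give no replicate numbers.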
